A study of Homo sapiens with 8 samples.

Results

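The genes described here encode enzymes that move nucleosomes, subunits of their complexes, DNA-binding ARID proteins, and families of enzymes that mostly add or remove methyl groups on lysines. They were taken by symbol from the gene names of 4 peak lists: the chromodomain remodelers CHD1 to CHD9, the SMARC subunits, the ARID genes, the BAZ genes, BPTF, INO80, the lysine demethylases (KDM), the lysine methyltransferases (KMT2 and KMT5) and the SETD genes. The rule found 69 genes among 19767 gene names. These genes held 4661 of 600615 peaks in PTBP1 replicate 1 and 4101 of 538802 in replicate 2, or 0.776% and 0.761%. They held 3441 of 362700 peaks in IGF2BP2 replicate 1 and 3115 of 341305 in replicate 2, or 0.949% and 0.913%.

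The lists come from enhanced crosslinking and immunoprecipitation with sequencing (eCLIP), which maps where an RNA-binding protein touches RNA, in A172, an established human glioma line. Cells of all groups took up 500 µM 4-thiouridine, a photoreactive nucleoside, over 3 h and were irradiated at 365 nm, and the labels name no genotype or drug. Each protein has 2 immunoprecipitation (IP) libraries and 2 libraries of its input, the RNA kept before the IP, and the input libraries enter only through the authors' peak scores. Nothing says that the 2 libraries of a protein came from separate cultures, and their spread, which the p-values below rest on, may be technical. PTBP1 is the polypyrimidine tract-binding protein, which binds pyrimidine-rich stretches and represses exons. IGF2BP2, also called IMP2, binds mature mRNAs, often in the 3′ UTR, and protects them from decay.

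Nucleosome remodelers use ATP to slide, evict or exchange nucleosomes, and fall into the SWI/SNF, ISWI, CHD and INO80 groups. Lysine methyltransferases with a SET domain write methyl marks on histone tails, and demethylases remove them. Genes of both kinds are often mutated in cancer, and many of them are long, with many exons. Long and abundant RNAs can collect more peaks, so peak numbers are read between the proteins and against the other genes of the same list.

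Peaks of the chromatin genes rested on somewhat more reads than the whole lists in PTBP1 and on equally few in IGF2BP2. The median peak of these genes had 18 and 15 IP reads in the PTBP1 libraries, against 12 and 9 over all peaks, and 4 in both IGF2BP2 libraries, as over all peaks. A peak with an overlapping peak in the other replicate was found for 59.1% and 66.3% of the PTBP1 peaks and 45.0% and 49.9% of the IGF2BP2 peaks of these genes. Over all peaks these shares were 55.6%, 61.5%, 48.2% and 51.6%. Of the marker genes, VIM, NES, CD44 and FN1, made by mesenchymal-like glioma cells, had peaks in all 4 libraries, and CD3E and ALB, of T cells and liver, had none. PTPRC, of blood cells, had 5 to 13 peaks per library, and the epithelial genes EPCAM and KRT18 had 2 to 14. Peaks show bound RNA and not expression.

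Every family of chromatin genes held peaks of both proteins. The lysine demethylases, with 18 genes, held the most peaks in each library (1315, 1111, 1120 and 1014 in PTBP1 replicates 1 and 2 and IGF2BP2 replicates 1 and 2), followed by the 11 SWI/SNF genes (969, 844, 657 and 578). KDM4B, which removes H3K9 methylation, led with 448, 360, 536 and 470 peaks. ARID1B, a DNA-binding subunit of the SWI/SNF complex BAF, followed with 388, 333, 157 and 127. SMARCA4 (BRG1), the ATPase of that complex, had 148, 125, 175 and 167. At the other end, CHD7 had 4, 0, 4 and 6 peaks, and KDM4D had 1 and 2 in PTBP1 and none in IGF2BP2. KDM4D was the only one of the 69 genes below the minimum of 10 peaks for the test of peak density. Per 10 kb of gene, the median gene held 7.21 and 6.16 PTBP1 peaks and 4.27 and 4.11 IGF2BP2 peaks.

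Peak density, the share of a list's peaks that lie in a gene, differed between the proteins for 22 of the 68 chromatin genes tested. It was taken as log2((peaks + 0.5)/(peaks in the list + 1) × 10000) and tested with limma over 15145 genes, with Benjamini-Hochberg adjustment at 0.05. Because the PTBP1 lists are longer, a gene with equal peak numbers everywhere counts as denser for IGF2BP2. Of the chromatin genes, 6 were denser for PTBP1 and 16 for IGF2BP2, and 46 did not pass. Over all genes tested, 25% passed, 12.7% toward PTBP1 and 12.3% toward IGF2BP2. The median difference, PTBP1 minus IGF2BP2, was -0.18 for the chromatin genes and -0.01 for all genes. Libraries of the 2 proteins did not overlap in density for 53 of the 68, beside 67.4% of all genes.

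**Figure D1:**
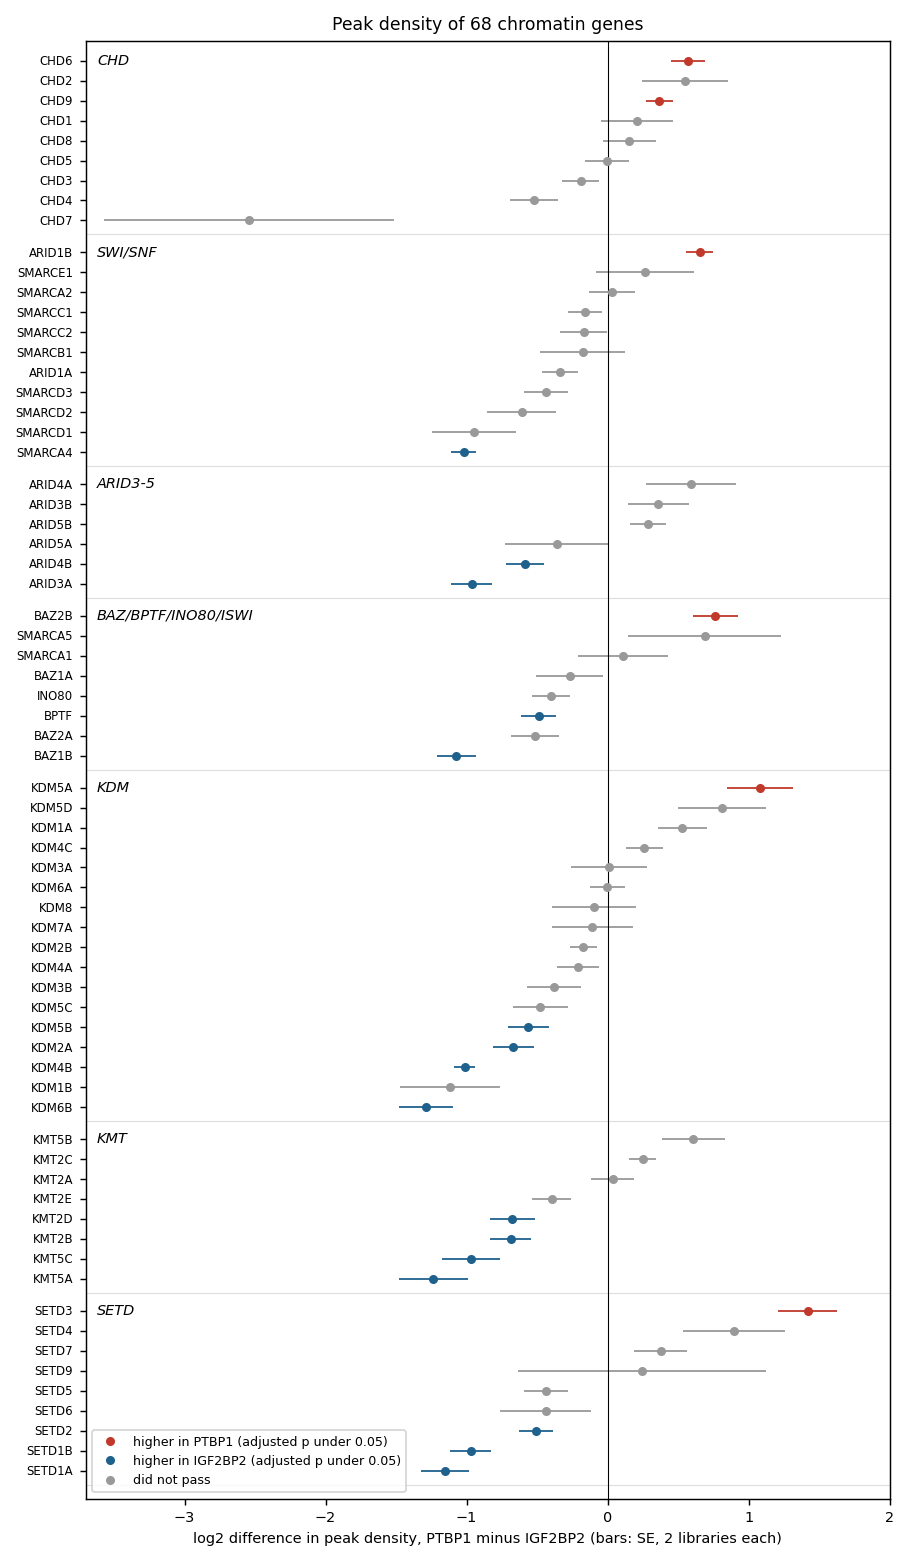
Difference in peak density (log2, PTBP1 minus IGF2BP2, x axis) for 68 chromatin genes (y axis), grouped by family, with the standard error as bars and colours for genes that passed limma's test at an adjusted p of 0.05. The 6 red genes lie right of 0 and the 16 blue genes left of it, and CHD7, with few peaks, has the widest bar.

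The 6 genes denser for PTBP1 were SETD3, KDM5A, BAZ2B, ARID1B, CHD6 and CHD9. SETD3, which methylates a histidine of actin, had 64 and 51 PTBP1 peaks and 15 and 11 IGF2BP2 peaks. Its difference was 1.42 ± 0.21 (SE, adjusted p = 0.00503). KDM5A, an H3K4 demethylase, had 51 and 45 peaks against 17 and 11, a difference of 1.08 ± 0.23 (SE, adjusted p = 0.0186). BAZ2B, a bromodomain protein of ISWI complexes, had 90 and 69 against 31 and 26 peaks and a difference of 0.76. In all 3 the PTBP1 libraries lay above both IGF2BP2 libraries in peaks and in density. ARID1B (0.65), and the remodelers CHD6 (0.57) and CHD9 (0.37), are long genes with over 40 peaks in every library. CHD6 had 115, 112, 48 and 46 peaks, and CHD9 had 181, 168, 86 and 81.

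The IGF2BP2 side held histone methyltransferases and demethylases of several marks. KDM6B, an H3K27 demethylase, had 26 and 28 PTBP1 peaks and 39 and 43 IGF2BP2 peaks, a difference of -1.29 ± 0.19 (SE, adjusted p = 0.0050). KMT5A, which adds the first methyl group of H4K20, had 23, 24, 29 and 41 peaks (-1.24), and KMT5C, which adds further ones, had 25, 19, 27 and 26 (-0.97). SETD1A and SETD1B, the catalytic subunits of COMPASS complexes that methylate H3K4, had differences of -1.15 and -0.97. SETD1A had 35 and 39 peaks against 53 and 49, and SETD1B had 49 and 41 against 54 and 55. KMT2B, another H3K4 methyltransferase, had 54, 54, 59 and 49 peaks (-0.69). Raw peak numbers of KMT2B and KMT5C overlapped between the proteins, and their densities did not.

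Among the remodeler and ARID genes, the IGF2BP2 side held BAZ1B, SMARCA4 and the DNA-binding gene ARID3A. BAZ1B, a subunit of the WICH complex with the ATPase SMARCA5, had 53 and 48 PTBP1 peaks and 72 and 60 IGF2BP2 peaks (-1.07 ± 0.14, SE, adjusted p = 0.00323). SMARCA4 differed by -1.02 ± 0.09 (SE, adjusted p = 0.00145) and KDM4B by -1.01 ± 0.08 (SE, adjusted p = 0.00145). ARID3A had 101, 85, 132 and 95 peaks (-0.97). KDM2A (-0.67), an H3K36 demethylase, SETD2 (-0.50), which trimethylates that lysine, and BPTF (-0.49), a subunit of the ISWI complex NURF, also passed.

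By family, the CHD remodelers had 2 genes denser for PTBP1, none for IGF2BP2 and 7 that did not pass. SWI/SNF had 1, 1 and 9, the ARID3 to ARID5 genes 0, 2 and 4, and the BAZ genes with BPTF, INO80 and the ISWI ATPases 1, 2 and 5. The demethylases had 1, 4 and 12, the KMT genes 0, 4 and 4, and the SETD genes 1, 3 and 5. Differences between families were not tested. Close relatives could lie on opposite sides. These pairs were picked after their values were seen, and the difference within a pair was not tested. ARID1B had 0.65 and ARID1A -0.34 (adjusted p = 0.095). BAZ2B had 0.76 and BAZ2A -0.51 (adjusted p = 0.067). KDM5A had 1.08 and KDM5B -0.56 (adjusted p = 0.033). SMARCA4 had -1.02 and SMARCA2, the other SWI/SNF ATPase, 0.03 (adjusted p = 0.91). Across the 68 genes, density differences and gene length had Spearman's rho of 0.26 and Pearson's r of 0.23 with log10 length. Over 14665 genes these were 0.25 and 0.19, and genes of 1 library are not independent points.

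Without either PTBP1 library fewer genes passed, and without either IGF2BP2 library more did, among the chromatin genes and over all genes tested alike. A fit without 1 library takes its spread from the pair of the other protein, so its counts are descriptive. All 22 differences kept their direction in each such fit. Without PTBP1 replicate 1, 3 genes stayed denser for PTBP1 (ARID1B, CHD6 and SETD3) and 12 were denser for IGF2BP2. Without PTBP1 replicate 2 the numbers were the same, 3 (ARID1B, BAZ2B and SETD3) and 12. Without IGF2BP2 replicate 1 they were 11 and 20, and without IGF2BP2 replicate 2 they were 7 and 23. Of the 22 calls, 14 held without PTBP1 replicate 1, 15 without PTBP1 replicate 2, and all 22 without either IGF2BP2 library.

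The direction of the balance depended on which peaks were counted. Each set of peaks was scaled to its own total, and a gene needed at least 10 such peaks over the 4 libraries. A gene can enter through the protein in which it is high, so the calls on these sets are descriptive. Among peaks of at least 10 IP reads, 20 of 61 chromatin genes (32.8%) were denser for PTBP1 and 8 (13.1%) for IGF2BP2. Over all genes these shares were 34.3% and 16.1%, so this turn was shared by the whole series. The median difference at that setting was 0.67, against 0.65 for all genes. Among the best 25% of the peaks of each list, 20 of 59 (33.9%) were denser for PTBP1 and 9 (15.3%) for IGF2BP2, beside 16.3% and 16.9% of all genes. Peaks enriched over input are those with an IP-to-input log2 of at least 3 on a scale common to all chromosomes of a library and a −log10 p of at least 3. Among these, 17 of 34 chromatin genes were denser for PTBP1 and 2 for IGF2BP2, beside 19.7% and 19.0% of all genes. The median difference there was 1.20, against 0.06 for all genes. The whole lists held 17520 and 15215 enriched PTBP1 peaks and 33345 and 31958 enriched IGF2BP2 peaks. A gene with equal numbers of enriched peaks therefore counts as denser for PTBP1. SMARCC1, with 8, 7, 8 and 6 enriched peaks, differed by 1.10.

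**Figure D2:**
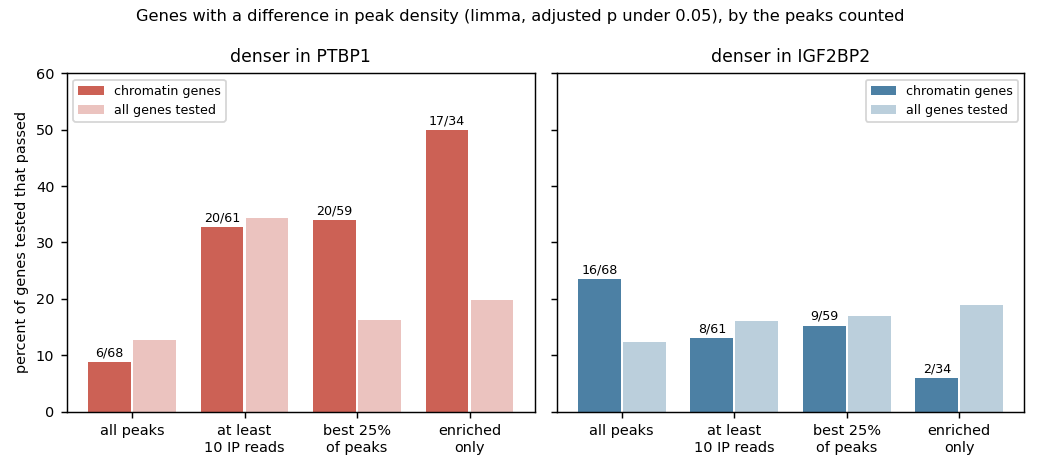
Percent of genes tested that passed limma's test (y axis) toward PTBP1 (left) and IGF2BP2 (right), for 4 choices of the peaks counted (x axis), with dark bars for the chromatin genes and pale bars for all genes. The numbers over the dark bars run from 6/68 to 17/34 toward PTBP1 and from 16/68 to 2/34 toward IGF2BP2.

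Several genes changed side with that choice. CHD3 and CHD4, the ATPases of the deacetylase complex NuRD, did not pass over all peaks (-0.19 and -0.52), with 76, 65, 49 and 50 peaks for CHD3 and 51, 48, 40 and 48 for CHD4. Of these, 75, 64, 2 and 1 in CHD3 and 45, 45, 4 and 3 in CHD4 had at least 10 IP reads. On such peaks their differences were 2.89 and 1.24. Both genes entered this set mainly through their PTBP1 peaks, so these values are descriptive. SMARCA4 had 139 and 122 PTBP1 peaks of at least 10 IP reads and 10 and 7 for IGF2BP2, and its difference turned to 1.60. KDM6B and SETD1B kept their side. KDM6B had 14, 15, 18 and 17 such peaks (-2.54), and SETD1B had 44, 37, 38 and 32 (-2.07). These differences rest on the list totals as well. Of all peaks with recovered reads, 56.5% and 49.6% in PTBP1 and 15.3% and 14.6% in IGF2BP2 had at least 10. Equal peak numbers therefore count here as denser for IGF2BP2. Of the 22 calls over all peaks, 9 held with at least 10 IP reads and 9 among the best 25%. Of the 16 that could be tested on enriched peaks, 5 held.

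Most IGF2BP2 peaks of CHD3, CHD4 and SMARCA4 thus had fewer than 10 reads, which limits what their number shows. With enriched peaks only, KMT2A, an H3K4 methyltransferase that is rearranged in leukaemia, had 9 and 8 PTBP1 peaks and 0 and 2 for IGF2BP2. It entered this fit mainly through its PTBP1 peaks, so its difference of 4.01 is descriptive. BPTF had 15, 19, 6 and 5 (2.54) and BAZ1B 16, 16, 9 and 6 (2.07). Both were on the IGF2BP2 side over all peaks. The 2 genes denser for IGF2BP2 on enriched peaks were SETD1B, with 11 and 5 IGF2BP2 peaks, and ARID5B, a DNA-binding partner of a demethylase, with 7 and 4. Neither had an enriched PTBP1 peak in either library, so both entered this fit through their IGF2BP2 peaks alone.

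Enriched peaks made up 5.34% (95% Wilson interval 4.73 to 6.03) and 5.49% (4.83 to 6.23) of the PTBP1 peaks in the chromatin genes, beside 2.92% and 2.82% of all PTBP1 peaks. For IGF2BP2 they made up 7.88% (7.02 to 8.82) and 8.99% (8.03 to 10.04), beside 9.19% and 9.36%. The intervals cover counting error only. The bar was unequal: the common scale adds -0.30 and -0.08 to the log2 read ratio in the PTBP1 libraries and 1.74 and 1.90 in those of IGF2BP2, so IGF2BP2 peaks passed with fewer IP reads per input read.

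Enriched PTBP1 peaks of the chromatin genes lay mostly in coding sequence, and those of IGF2BP2 mostly in introns. Coding sequence held 157 of 249 and 151 of 225 enriched PTBP1 peaks, 65.1% ± 2.87 (SD, n = 2), and 53 of 271 and 44 of 280 enriched IGF2BP2 peaks, 17.6% ± 2.72 (SD, n = 2). Over all genes these shares were 26.7% ± 0.27 and 5.53% ± 0.28 (SD, n = 2). The 3′ UTRs held 2 and 0 enriched PTBP1 peaks and 29 and 36 of IGF2BP2, 11.8% ± 1.52 (SD, n = 2). Introns held 34.3% ± 2.02 and 68.0% ± 1.25 (SD, n = 2). Over all enriched peaks, introns held 61.7% for PTBP1 and 70.2% for IGF2BP2, and 3′ UTRs held 2.44% and 15.1%. The intron share of IGF2BP2 was thus near that of its whole lists, and its 3′ UTR share was below it. Each difference between the proteins in the chromatin genes exceeded the spread between replicates. No p below 0.333 can come from 2 libraries against 2, and a two-sided exact permutation test returned that value for all 3.

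**Figure D3:**
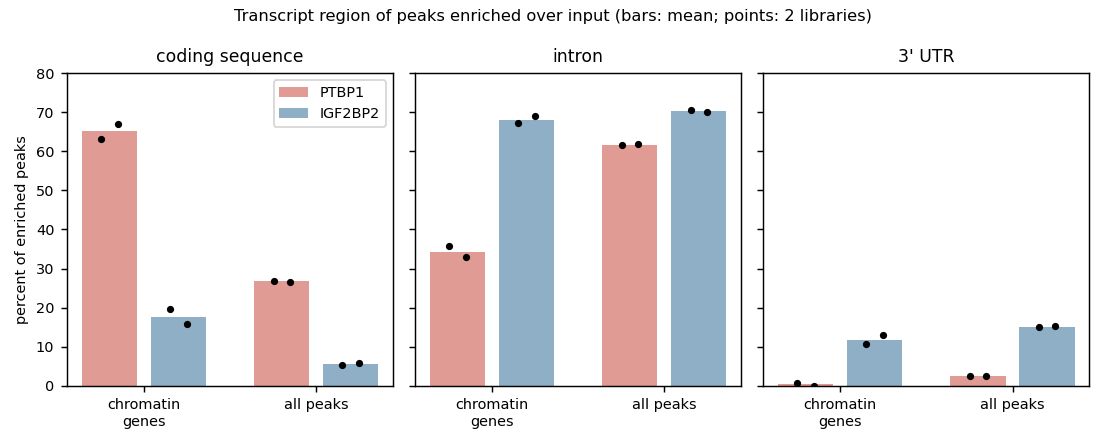
Percent of peaks enriched over input (y axis) in coding sequence, introns and 3′ UTRs, for the chromatin genes and for all peaks, with bars for the mean of each protein and points for its 2 libraries. In the chromatin genes coding sequence holds 63.1% and 67.1% for PTBP1 and 19.6% and 15.7% for IGF2BP2.

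The coding-sequence difference held, at a smaller size, among enriched peaks of at least 20 IP reads, where it was 26.4 percentage points in place of 47.4. The intron difference there turned from -33.7 to 2.91 points. With one bar of 10 IP reads per input read for both proteins, the coding-sequence difference was 45.5 points and the intron difference -39.1. Both settings were chosen after seeing the data. Over all peaks, enriched or not, 29.5% ± 0.62 (SD, n = 2) of the chromatin genes' PTBP1 peaks and 18.2% ± 0.91 (SD, n = 2) of their IGF2BP2 peaks were in coding sequence, beside 13.4% and 9.21% of the whole lists.

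The part of a gene's peaks in coding sequence varied from gene to gene. Among the 43 genes with at least 20 peaks in every library, the median gene had 36.7% and 34.1% of its PTBP1 peaks in coding sequence and 16.1% and 17.4% of its IGF2BP2 peaks. KMT2B, a gene of 20.9 kb, was highest in all 4 libraries, with 94.4%, 100%, 72.9% and 67.3%. KDM4C, a demethylase gene of 455 kb, was lowest, with 2.30% and 4.55% in PTBP1 and 0% in both IGF2BP2 libraries, of 47 and 43 peaks. Across these genes the share fell with gene length (Spearman's rho -0.79, -0.74, -0.56 and -0.55). This is a description across genes that share their libraries. The 2 proteins differed in the relatives CHD3 and CHD4 alike: 86.8% and 87.7% of the CHD3 peaks of PTBP1 were in coding sequence and 40.8% and 44.0% of those of IGF2BP2. For CHD4 the shares were 84.3%, 83.3%, 32.5% and 52.1%. In ARID1B they were close, at 10.6%, 9.91%, 9.55% and 7.09%.

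Within coding sequence, 11.9% ± 0.50 (SD, n = 2) of the PTBP1 peaks of chromatin genes were enriched, against 5.73% ± 0.27 over all genes. For IGF2BP2 it was 8.15% ± 0.91 against 5.57% ± 0.32 (SD, n = 2). In introns the PTBP1 share was 2.80% ± 0.10, against 2.40% ± 0.04 over all genes (SD, n = 2). In 3′ UTRs 18.7% ± 3.98 of the IGF2BP2 peaks were enriched, against 20.9% ± 0.02 over all genes (SD, n = 2), a difference within the spread.

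Joining overlapping peaks of both replicates gave 2412 PTBP1 regions and 1424 IGF2BP2 regions in the chromatin genes. Of these, 117 PTBP1 regions in 33 genes and 68 IGF2BP2 regions in 27 genes were enriched in both replicates, 15 genes held both, and 24 held neither. This is 4.85% of the PTBP1 regions, beside 2.30% of those of all genes, and 4.78% of the IGF2BP2 regions, beside 5.92%. By gene, 49.3% of the chromatin genes with a PTBP1 region held an enriched one, beside 17.7% of all genes, and 40.3% for IGF2BP2, beside 27.9%. A gene with more regions has more chances to hold an enriched one. Of the 117 PTBP1 regions, 83 lay in coding sequence and 34 in introns, with none in UTRs. Of the coding-sequence regions, 10.1% were enriched, beside 4.60% of those of all genes, and of the intron regions 2.31%, beside 1.86%. None of the 65 regions in 3′ UTRs was, which allows a share of up to 4.62% from counting error alone, beside 1.63%, and 3.23% of all genes with such a region held an enriched one. Of the chromatin genes with a PTBP1 region in coding sequence, 33.8% held an enriched one there, beside 11.8% of all such genes, and in introns 28.1%, beside 13.7%. Of the 68 IGF2BP2 regions, 30 lay in introns, 23 in coding sequence, 13 in 3′ UTRs and 2 in exons of non-coding transcripts. These are 3.14% of the intron regions, beside 4.87% over all genes, and 7.30% of the coding-sequence regions, beside 3.38%. Of the 3′ UTR regions they are 12.6%, beside 18.6%. KMT2E alone held 8 of the 23 coding-sequence regions, 4 of them opposite to the gene. Leaving out regions known to be opposite to their gene, 19 of the 23 remain. Of the chromatin genes with an IGF2BP2 region in coding sequence, 18.2% held an enriched one there, beside 7.18% of all such genes. In introns these shares were 29.7%, beside 21.3%, and in 3′ UTRs 23.3%, beside 32.8%.

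**Figure D4:**
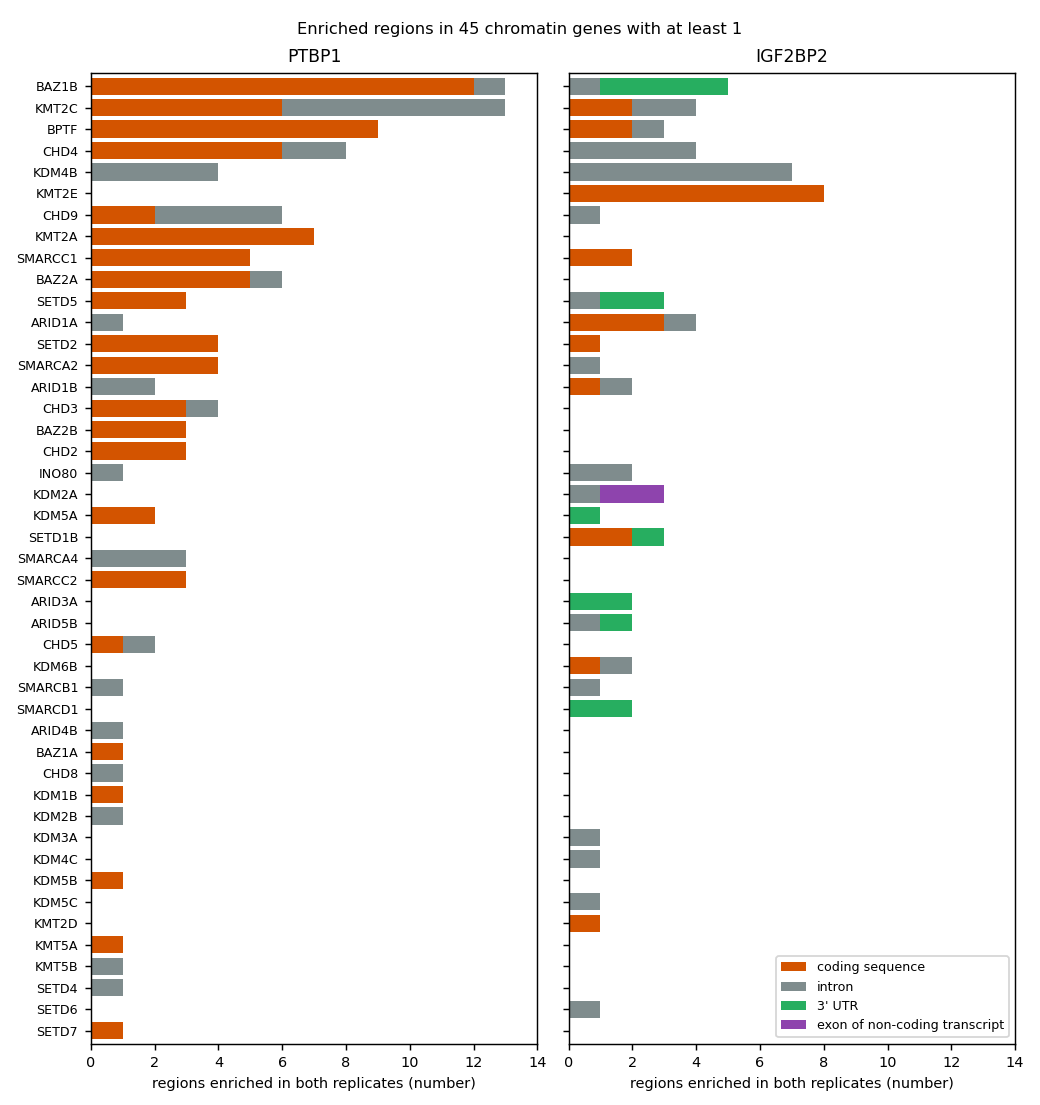
Number of regions enriched in both replicates (x axis) for PTBP1 (left) and IGF2BP2 (right) in each of the 45 chromatin genes that hold at least 1 (y axis), coloured by transcript region. BAZ1B and KMT2C lead for PTBP1 with 13 each, and KMT2E leads for IGF2BP2 with 8, of which 4 lie on the strand opposite the gene.

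Of the 83 PTBP1 coding-sequence regions, 28 lay in BAZ1B (12), BPTF (9) and KMT2A (7), 14 genes held 3 or more, and 6 held 1. In BAZ1B the 12 regions spread over 63.6 kb, from chr7:73447264 to chr7:73510849 (hg38, minus strand). The one with the highest log2 in its weaker replicate, chr7:73450942-73450994, had 79 IP reads to 1 input read in replicate 1 and 51 to 1 in replicate 2 (log2 6.0 and 5.60). A second, chr7:73498539-73498552, had 60 to 1 and 45 to 1. The deepest, chr7:73447264-73447317, had 602 to 52 and 380 to 35, a log2 of 3.23 and 3.36. BAZ1B held 1 further PTBP1 region in an intron. Its 5 IGF2BP2 regions lay elsewhere, 4 in the 3′ UTR within 1.19 kb and 1 in an intron.

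BPTF carried its 9 PTBP1 regions over 94.0 kb of coding exons and introns between them, at log2 3.32 to 5.92. KMT2A carried 7 over 34.5 kb with 16 to 53 IP reads and 1 to 3 input reads each. KMT2C, which methylates H3K4 at enhancers, held 6 in coding sequence and 7 in introns over 200 kb. Its leading coding region, chr7:152163283-152163395, had 56 to 1 and 46 to 1 reads. The intron region chr7:152211957-152212107 had 41 to 1 and 44 to 2. CHD2, a remodeler mutated in epilepsy, had its leading region at chr15:92984331-92984463, with 123 to 2 and 89 to 2 reads (log2 5.64 and 5.40). BAZ2A, which silences ribosomal RNA genes, held 5 coding-sequence regions over 6.96 kb and 1 in an intron. SMARCC1, a core SWI/SNF subunit, also held 5 in coding sequence, and SETD2 held 4, at log2 3.78 to 5.22.

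CHD4 and CHD3 held deep PTBP1 sites. CHD4 had 6 PTBP1 regions in coding sequence and 2 in an intron. The intron pair overlaps the small Cajal body RNA gene SCARNA11 and lies on both strands: chr12:6581479-6581587 on the plus strand, opposite to CHD4, had 270 to 5 and 302 to 3 reads, and chr12:6581501-6581598 on the minus strand had a log2 of 5.03 and 6.59. A coding-sequence pair was mirrored in the same way, with chr12:6583241-6583384 on the plus strand and chr12:6583320-6583378 on the minus strand, which had 271 to 7 and 199 to 8 reads. Whether each pair is 1 site read on both strands was not tested. In CHD3 the intron region chr17:7910365-7910438 had 418 to 14 and 273 to 11 reads (log2 4.60 and 4.56). Its coding region chr17:7897108-7897144 had 735 to 62 and 454 to 24.

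Introns of CHD9, KDM4B and SMARCA4 held 4, 4 and 3 enriched PTBP1 regions. Those of CHD9 spread over 227 kb at log2 3.05 to 4.62, and those of KDM4B over 120 kb at 3.24 to 4.42. SMARCA4 had none in coding sequence, with 3.02 to 5.42 in its introns. The RefSeq tables used here hold bases only for windows around gene starts, so most regions have no sequence to show. One reproducible PTBP1 region of CHD9, chr16:53208239-53208362 on the plus strand of GRCh38.p14, lies in such a window. It is shown for its matches to TCTT, a short pyrimidine motif of PTBP1, in capitals, counted with overlaps and on the strand of the region only:

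CHD9 intron region: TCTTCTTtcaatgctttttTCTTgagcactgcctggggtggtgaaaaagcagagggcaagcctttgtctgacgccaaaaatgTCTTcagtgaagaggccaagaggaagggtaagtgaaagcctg

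It holds 4 matches, and 36.2% of the windows hold at least 1 at the same place and length. This region had 17 IP reads to 1 input read in replicate 2 and 5 to 2 in replicate 1, so it was enriched in 1 replicate only. Of the 12 PTBP1 regions of chromatin genes in such windows, 8.33% held TCTT, beside 9.76% of 3054 regions of all genes, and none of the 12 was enriched in both replicates.

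Below the bar, PTBP1 regions could still be deep. The coding region chr1:43667916-43668019 of KDM4A, an H3K9 and H3K36 demethylase, had 139 to 43 and 157 to 46 reads (log2 1.39 and 1.69). This region was picked with its values known. It is shown in lower case because neither TCTT nor CTTTCT occurs in it:

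KDM4A coding region: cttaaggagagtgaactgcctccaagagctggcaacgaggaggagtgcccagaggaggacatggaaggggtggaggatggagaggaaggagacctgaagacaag

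Pyrimidines make up 26.0% of these 104 bases and 44.4% of the 124 bases of the CHD9 region, against a median of 46.2% over the PTBP1 regions of all genes in such windows.

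IGF2BP2 regions were fewer per gene and shallower. Their median was 13 and 10.5 IP reads in the 2 replicates, against 53 and 41 for the PTBP1 regions, with a median of 2 input reads for both proteins. Of the 68 regions, 20 lay in the 3 leading genes, KMT2E (8), KDM4B (7) and BAZ1B (5), and 10 genes held 1. With the bar of 10 IP reads per input read in both replicates, 3 IGF2BP2 regions were left, and 110 of PTBP1, 79 of them in coding sequence. The IGF2BP2 regions left lay in introns of CHD4 and KDM4C, and those of CHD4 are abutting pieces of a single site. With constants of -0.30 and -0.08, the log2 bar of 3 already lay close to this bar for PTBP1. With 1.74 and 1.90 it lay well below it for IGF2BP2. The numbers left, and in part the median reads, thus follow from how enriched was defined.

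**Figure D5:**
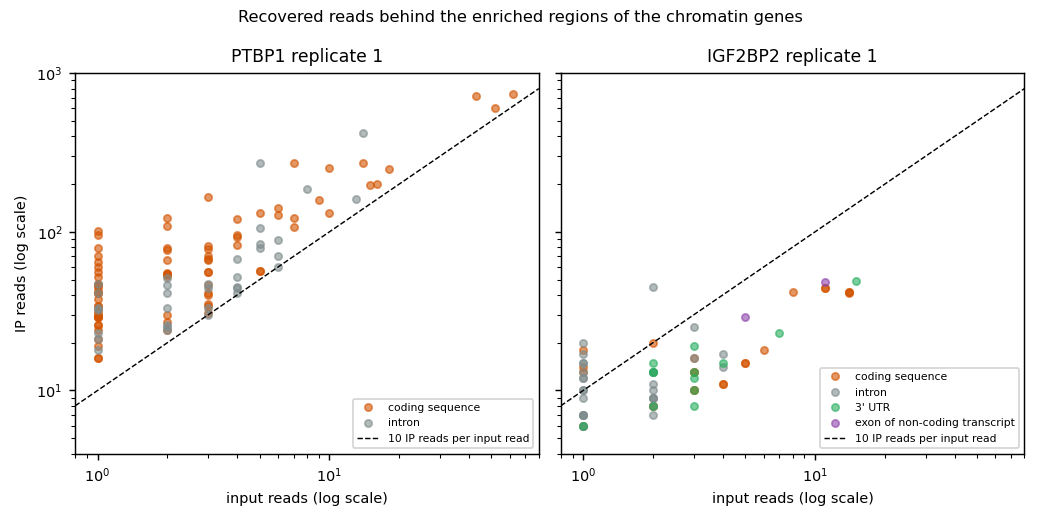
Recovered IP reads (y axis, log scale) against input reads (x axis, log scale) of regions enriched in both replicates, in replicate 1 of each protein, with colours for the transcript region and a dashed line at 10 IP reads per input read. All 113 PTBP1 points with recovered reads lie on or above the line, against 14 of the 68 IGF2BP2 points. The enrichment bar itself lies close to this line for PTBP1 and well below it for IGF2BP2.

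KMT2E, a SET-domain protein that reads H3K4 methylation, held 8 IGF2BP2 regions in coding sequence and none of PTBP1. Of the 8, 4 lay on the minus strand, opposite to the gene, and 3 of these mirrored a region on its own strand with nearly the same reads. At chr7:105112613-105112660 the plus strand had 42 to 14 and 32 to 13 reads, and its mirror, chr7:105112627-105112674, had the same. The fourth, chr7:105112824-105112859, had 20 to 2 and 12 to 2 reads. Joined over both strands with gaps of up to 50 nt, these are 5 sites. The region on the gene's own strand with the highest log2 was chr7:105063360-105063387, with 14 to 1 and 10 to 2 reads. Over all chromatin genes, the same joining gave 60 IGF2BP2 sites and 114 PTBP1 sites. Leaving out regions opposite to their gene gave 64 and 115 regions, where the strand of the gene was known (58 and 97 regions).

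KDM4B held 7 IGF2BP2 regions over 115 kb of introns, at log2 3.10 to 6.30, with at most 21 IP reads. At chr19:5019077-5019123 there were 20 to 1 and 8 to 1 reads. None of the 7 overlapped an enriched PTBP1 region, although KDM4B introns held 4 of those. The leading intron region of KDM4C, chr9:6835701-6835744, was the deepest intron region of IGF2BP2, with 45 to 2 and 46 to 4 reads (log2 6.23 and 5.43). KDM3A, an H3K9 demethylase, had 1 at chr2:86478475-86478504 with 13 to 1 and 9 to 1. In KDM2A, 2 regions lay in exons of non-coding transcripts: chr11:67255167-67255213 had 29 to 5 and 37 to 4 reads, and chr11:67257116-67257165 had 48 to 11 and 49 to 10.

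CHD4 held 4 IGF2BP2 regions in introns, which are 2 sites of abutting pieces. The site chr12:6579129-6579149 had 15 to 1 and 24 to 1 reads in both pieces (log2 5.65 and 6.49). The other, chr12:6606545-6606565 on the minus strand, is the only enriched site of these genes in a RefSeq window, and its bases are shown with no capitals because neither ACACA nor GGAC, searched on its own strand as short motifs of IGF2BP proteins, occurs in it:

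CHD4 intron site: cgggtgccctgctagggtggc

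Its first 17 bases had 9 to 2 reads in both replicates, and the abutting last 4 had 9 to 2 and 9 to 1. INO80, the ATPase of the complex of that name, likewise held 1 intron site in 2 pieces, with 7 to 1 and 6 to 1 reads.

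The 13 IGF2BP2 regions in 3′ UTRs lay in 7 genes. BAZ1B held 4, and ARID3A, SETD5 and SMARCD1, a SWI/SNF subunit, held 2 each. The leading one was in ARID5B, at chr10:62093399-62093438, with 13 to 2 and 11 to 1 reads (log2 4.44 and 5.36). In SMARCD1, chr12:50099672-50099698 had 6 to 1 and 9 to 1 reads, and chr12:50099552-50099595 had 15 to 2 and 10 to 2. In coding sequence ARID1A, the subunit of BAF most often mutated in cancer, held 3 IGF2BP2 regions over 48.8 kb at log2 3.02 to 4.49 and no enriched PTBP1 region there. KMT2C and BPTF held 2 each. KMT2C had 6 to 1 and 10 to 1 reads at chr7:152176411-152176465.

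Enriched regions of the 2 proteins seldom lay on each other. Of the 2412 PTBP1 regions 21.0% overlapped an IGF2BP2 region, and 36.7% of the 1424 IGF2BP2 regions overlapped one of PTBP1, against 19.9% and 39.6% over all genes. Of the enriched ones, 5 of 117 (4.27%) and 5 of 68 (7.35%) overlapped an enriched region of the other protein. Over all genes these shares were lower, at 2.99% and 2.30%, and the difference was not tested. The 5 overlaps in the chromatin genes lay in SMARCC1 (2), BPTF, KMT2C and SETD2, and they were singled out after their values were seen. In SMARCC1, PTBP1 had 65 to 1 and 41 to 2 reads at chr3:47693241-47693300, and IGF2BP2 had 10 to 3 and 7 to 1 at chr3:47693241-47693267. In SETD2, PTBP1 had 95 to 4 and 58 to 4 reads at chr3:47057340-47057472, and IGF2BP2 had 11 to 4 and 10 to 2 within it.

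Peaks on the strand opposite to their gene were rarer in the chromatin genes than overall. They made up 3.96%, 3.44%, 2.98% and 3.21% of the peaks in the 4 libraries, for the 59 genes with a known strand that had peaks (58 in IGF2BP2), against 7.88% to 8.08% over all genes. KDM1A (LSD1), the first histone demethylase described and named here after its values were seen, held 37, 25, 12 and 10 of them, of 61, 48, 25 and 21 peaks.

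Other chromatin genes outside the rule, a list of 75 such as the acetyltransferases, deacetylases and NSD methyltransferases, were counted the same way. Of 72 tested, 9 were denser for PTBP1, 17 for IGF2BP2 and 46 did not pass, with a median difference of -0.28. They held 95 enriched PTBP1 regions in 33 genes, 43 of them in coding sequence. They also held 103 enriched IGF2BP2 regions in 32 genes, 67 in introns, 14 in coding sequence and 19 in 3′ UTRs. Coding sequence held 70.9% of the enriched PTBP1 regions of the rule's genes and 30.2% of those of the whole series. For IGF2BP2 these shares were 33.8% and 5.65%. How many reproducible regions the other chromatin genes held is not given here. With enriched peaks only, 6 of 31 of these other genes (19.4%) were denser for PTBP1 and 4 (12.9%) for IGF2BP2, beside 19.7% and 19.0% of all genes. Differences between this list and the rule's genes were not tested.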

How the data were processed

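The authors deposited 1 peak list per IP library, not pooled, with the gene, transcript region and nucleotides of overlap with the feature of each peak, per the file headers. HISAT2 and hg38 are named in the submitters' processing notes, with no version, and which peak caller, annotation and filters were used is not given in the sources used here. The deposited −log10 p values run from 0 to 400, and a further deposited column holds log2 values that equal log2(IP reads/input reads) plus a constant per chromosome. No source names the divisor, and it is taken as the input from these values.

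IP and input reads were recovered from both columns allowing 1% deviation in −log10 p (exact binomial test below 5 reads, else chi-square with continuity correction), which worked for 98.5% to 99.6% of eligible peaks. Each library was put on the median of its 24 chromosome constants. Duplicate lines, at most 55 in a list, were dropped. Regions join same-strand peaks of both replicates that overlap by at least 1 nt. Depth over whole libraries is unknown. Input libraries by themselves are not analysed here.

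Peak density was tested with limma 3.58.1 in R 4.3.3, and code was tested on simulated data. The members, the lists and the tests were chosen with earlier results of these data known. Genes are named by these rules: up to 10 per direction past the threshold with libraries that do not overlap, the genes with the most enriched regions, the leading regions, and the gene of each family with the most regions. Any other is said to be picked later, except CHD7 and KDM4D, which end a range, and CHD2, KDM3A and KDM4A. These last genes lie outside the rules and were also named with their values known. Starts are 1-based. Sequences come from the RefSeq table of GRCh38.p14. Alternatives, with their effect given in the closing section, were another pseudocount, no filter, scaling by the trimmed mean of M values (TMM), nucleotides in place of peaks, stricter peak sets, other overlaps, a replicate block and leaving out each library.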

Additional observations from a re-analysis of the deposited data

Results flagged for a closer look

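Within single chromatin genes, coding-sequence peaks scored above intron peaks in both PTBP1 libraries and below them in both IGF2BP2 libraries. The median difference in log2 over input, CDS minus intron, was 0.74 and 0.50 in PTBP1 replicates 1 and 2 (60 and 62 genes with at least 3 peaks in each region) and -1.04 and -1.0 in IGF2BP2 (46 and 45 genes). The difference was above 0 in 48 and 43 of the PTBP1 genes and below 0 in 36 and 37 of the IGF2BP2 genes. Over all genes the medians were 0.21, 0.12, -1.0 and -1.08. There the difference was above 0 in 3649 of 6282 and 3176 of 5861 genes in PTBP1. It was below 0 in 2428 of 3220 and 2268 of 2985 genes in IGF2BP2. The IGF2BP2 values of the chromatin genes were thus near those of the whole series.

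The 3′ UTR peaks went the other way. Their median difference from the coding-sequence peaks of the same gene was -0.21 and -0.44 in PTBP1 (14 and 10 genes) and 1.39 and 0.95 in IGF2BP2 (22 and 18 genes), beside -0.28, -0.26, 1.29 and 1.26 over all genes. Both contrasts drew attention because every library of one protein moved one way and every library of the other the opposite way, and neither difference between the proteins was tested.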

How the results depend on the processing

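Directions of the density differences of the 32 genes that the rule names held under another pseudocount, no filter, TMM scaling, no mirrored peaks and the replicate block, and for those that could be tested with peaks of the gene's own strand. By nucleotides SMARCC1 turned to 0.10, and KMT2A turned to -0.04 without PTBP1 replicate 1 and to -0.03 without IGF2BP2 replicate 1, and neither gene passed in any of these fits. The other turns came where fewer peaks were counted, and the cause was not tested. With at least 10 IP reads the turned values were 0.45 for BPTF, 2.89 for CHD3, 1.24 for CHD4, 0.42 for KMT5C and 1.60 for SMARCA4. Also at that setting, ARID5B (-0.56), BAZ2A (0.68), INO80 (2.20), KDM4C (-0.37), SETD5 (0.16) and SMARCC1 (0.57) had the other sign, and these 6 passed neither there nor over all peaks. Among the best 25% they were -2.02 for ARID5B, 0.42 for BAZ1B, 1.15 for BAZ2A, 1.20 for BPTF, 3.66 for CHD3, 1.56 for CHD4, 0.0027 for KDM4B, -1.47 for KDM4C, 3.26 for KMT2B, 2.29 for KMT5C, 0.75 for SETD5 and 1.59 for SMARCA4. With enriched peaks only they were -2.54 for ARID5B, 2.07 for BAZ1B, 2.70 for BAZ2A, 2.54 for BPTF, 3.47 for CHD3, 2.34 for CHD4, 1.09 for SETD2, 1.22 for SETD5, 1.03 for SMARCA4 and 1.10 for SMARCC1. Chromatin genes denser for PTBP1 and IGF2BP2 numbered 14 and 27 by nucleotides (20.6% and 39.7%), beside 18.5% and 18.0% of all genes. With at least 10 IP reads they numbered 20 and 8, beside 34.3% and 16.1% of all genes. Among the best 25% they numbered 20 and 9, beside 16.3% and 16.9%. With enriched peaks they numbered 17 and 2, beside 19.7% and 19.0%. Leaving out 1 library gave 3 to 11 and 12 to 23. With the replicate number as a block, 9 chromatin genes (13.2%) were denser for PTBP1 and 21 (30.9%) for IGF2BP2, beside 16.3% and 15.1% of all genes. The replicate numbers did not pair the libraries (r = -0.0016 between the replicate differences of both proteins over 15145 genes).

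With log2 of at least 4 and −log10 p of at least 5, the enriched share was 1.98% for PTBP1 and 1.70% for IGF2BP2, with 40 and 15 enriched regions. On the deposited scale PTBP1 had 9.85% and 210 regions. Among peaks of at least 10 IP reads the enriched shares were 10.1% and 23.6%, and the shares found in the other replicate were 79.5% and 83.6%. One bar of 10 IP reads per input read, close to the bar that PTBP1 regions had already passed, left 3 IGF2BP2 regions. Those in CHD4 are abutting pieces of a single site. The intron difference turned to 2.91 points with at least 20 IP reads. Low reads limit the IGF2BP2 values most, since 33.1% and 32.6% of its chromatin-gene peaks with recovered reads had exactly 3 IP reads.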
